A study of Mus musculus with 4 samples.

Results

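A set of 10 transcription factors of stratified epithelium was followed across 4 spatial transcriptome sections of wild-type mouse tissue: Trp63, Sox2, Pax9, Klf5, Klf4, Elf5, Grhl1, Grhl3, Foxe1 and Pitx1. The genes were found by symbol among the 32285 genes of the count tables, each under 1 identifier, and all 10 had UMIs (unique molecular identifiers, counts of captured RNA molecules) in every section. The sections, each 8 µm thick and from untreated wild-type (WT) animals, were a mouse embryo at E13.5 (1 section), a mouse embryo at E16.5 (1 section) and dissected neonatal esophagus at postnatal day 0 (P0, 2 sections). The series concerns Lgr5-marked progenitors in the developing esophagus, and all 4 sections carry the wild-type genotype, so no mutant or treated animal enters the values below. An embryo section holds many organs and a P0 section holds esophagus alone, so stage and dissection change together.

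A stratified epithelium is a sheet of several cell layers in which basal cells divide and their daughters differentiate as they move outwards. Trp63 encodes p63, which basal cells need to form and keep the layers. Sox2 sets the fate of the anterior foregut that gives rise to the esophagus, and it also maintains neural progenitors. Pax9, Foxe1 and Pitx1 are patterning factors: Pax9 acts in pharyngeal pouches, palate, teeth and esophageal epithelium, Foxe1 in thyroid and palate, and Pitx1 in hindlimb, pituitary and oral epithelium. Klf5 is a zinc finger factor of proliferating epithelial cells, and Klf4, of the same family, acts in barrier formation in epidermis and is also active in fibroblasts and vessels. Elf5, an ETS factor, is known from mammary and lung epithelium, and Grhl1 and Grhl3 are grainyhead factors that drive desmosome and barrier genes in the outer layers. The UMIs are counted per gene, so the isoforms of Trp63 cannot be told apart, and Sox2 lies within the non-coding gene Sox2ot.

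In GRCm38.p6, the mouse assembly also called mm10, Trp63 (ENSMUSG00000022510) spans chr16:25683763-25892088 and has 11 RefSeq transcripts, and Sox2 (ENSMUSG00000074637) spans chr3:34649995-34652461. Pax9 (ENSMUSG00000001497) lies at chr12:56691693-56712824, Foxe1 (ENSMUSG00000070990) at chr4:46343644-46345774 and Pitx1 (ENSMUSG00000021506) at chr13:55825044-55836190. Klf5 (ENSMUSG00000005148) lies at chr14:99298691-99313412 and Klf4 (ENSMUSG00000003032) at chr4:55527137-55532475. Elf5 (ENSMUSG00000027186) lies at chr2:103412098-103450989, Grhl1 (ENSMUSG00000020656) at chr12:24572232-24617391 and Grhl3 (ENSMUSG00000037188) at chr4:135541887-135573632. Chromosome 4 carries Klf4, Foxe1 and Grhl3, far apart from one another, and chromosome 12 carries Pax9 and Grhl1.

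The promoters of Elf5, Grhl1 and Grhl3 are shown because these 3 genes were the members called higher in spots that lean to suprabasal markers at P0, a range of a score and not a cell layer. These calls did not hold under every setting, and DESeq2 called none of them. Each line gives the 300 bases from 250 before to 50 after a transcription start that lies at or nearest to the start of the gene (RefSeq, GRCm38.p6, 5′ to 3′ on the gene's strand). Capitals mark matches on either strand to GGAAG, the core of the ETS family that includes Elf5, or to CCACCC, the KLF motif. The windows are chr2:103411848-103412147 on the plus strand for Elf5, chr12:24572037-24572336 on the plus strand for Grhl1 and chr4:135573583-135573882 on the minus strand for Grhl3.
Elf5: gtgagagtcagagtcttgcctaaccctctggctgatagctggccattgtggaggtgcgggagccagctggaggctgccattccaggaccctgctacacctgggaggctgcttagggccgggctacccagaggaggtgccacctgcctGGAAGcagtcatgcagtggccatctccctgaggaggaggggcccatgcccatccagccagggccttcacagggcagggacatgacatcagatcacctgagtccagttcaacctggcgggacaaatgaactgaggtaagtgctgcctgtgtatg
Grhl1: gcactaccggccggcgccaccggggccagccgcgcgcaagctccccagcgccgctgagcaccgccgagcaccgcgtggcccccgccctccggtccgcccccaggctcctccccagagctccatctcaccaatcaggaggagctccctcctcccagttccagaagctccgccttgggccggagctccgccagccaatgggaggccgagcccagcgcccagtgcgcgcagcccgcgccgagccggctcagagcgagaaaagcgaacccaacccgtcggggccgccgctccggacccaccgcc
Grhl3: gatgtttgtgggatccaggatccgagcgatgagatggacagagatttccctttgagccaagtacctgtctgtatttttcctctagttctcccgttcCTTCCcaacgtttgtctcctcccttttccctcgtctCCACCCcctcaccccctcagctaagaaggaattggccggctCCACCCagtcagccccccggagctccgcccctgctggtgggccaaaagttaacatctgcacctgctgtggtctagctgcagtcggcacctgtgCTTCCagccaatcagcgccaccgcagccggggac
The Elf5 window held 1 ETS match, the Grhl3 window held 2 KLF and 2 ETS matches, and the Grhl1 window had no match to these letters. A second Elf5 window, at chr2:103423818-103424117, held 3 KLF matches, and a second Grhl1 window, at chr12:24580469-24580768, held 1 KLF and 2 ETS matches. Windows were at hand for 6 of the 10 genes (8 windows), and those of Pax9 and Klf4 held 3 and 1 ETS matches. Of 32841 mouse promoter windows of the same length, 71.42% held GGAAG and 31.48% held CCACCC, so these matches are a description of the letters and not of binding. The grainyhead motif AACNGGTT, present in 2.089% of all windows, and the TATA box TATAAA, present in 13.62%, were found in none of the 8.

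After spots under 500 UMIs were dropped, 3220 spots remained at E13.5, 3588 at E16.5, and 363 and 264 in P0 replicates 1 and 2. Totals ran from 7356008 UMIs in P0 replicate 2 to 105834164 at E16.5, with median depths of 25465 to 29289 UMIs per spot. The P0 spots lay in separate strips, 5 groups of at least 20 spots in replicate 1 and 3 in replicate 2, and the labels do not name the animals behind them. P-values below therefore rest on 2 sections, whose spread may be technical. They weigh how region differences vary between these sections together with the spread of all genes. In the suprabasal against basal comparison the spread is that of all genes alone. A Visium spot covers several cells, so a level is that of a mixture. A level is a gene's share of the summed UMIs of the spots in question, given per 1000000 (CPM). The E13.5 and E16.5 values have no replicate and carry 95% intervals (exact Poisson for levels, exact Clopper-Pearson for shares of spots), which cover counting error only.

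Every one of the 10 factors stood higher per section in P0 esophagus than in either embryo section. The share of all genes higher in P0 esophagus than in whole embryos was not counted. Trp63 had 4.54 CPM in the E13.5 embryo (4.13 to 4.98), 7.03 CPM in the E16.5 embryo (6.53 to 7.55) and 87.1 and 94.2 CPM in the P0 sections. Sox2 had 34.7 CPM in the E13.5 embryo (33.6 to 35.9), 25.7 CPM in the E16.5 embryo (24.7 to 26.7) and 144 and 145 CPM at P0. The E13.5 and E16.5 intervals of Sox2 did not overlap, and both lay below its P0 levels. Among the patterning factors, Pax9 had 10.0 CPM in the E13.5 embryo (9.39 to 10.6), 5.47 CPM in the E16.5 embryo (5.03 to 5.94) and 120 and 130 CPM at P0. Foxe1 had 3.71 CPM in the E13.5 embryo, 4.87 CPM in the E16.5 embryo and 118 and 111 CPM at P0. Pitx1 had 19.5 CPM in the E13.5 embryo, 11.3 CPM in the E16.5 embryo and 278 and 263 CPM at P0. Pax9, Pitx1 and Sox2 were lower at E16.5 than at E13.5 with intervals that did not overlap, while the other 7 members had higher values at E16.5. The shares of all genes that differed in these ways were not counted.

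Klf5 had 11.4 CPM in the E13.5 embryo (10.7 to 12.1), 19.3 CPM in the E16.5 embryo (18.5 to 20.2) and 339 and 346 CPM at P0. Klf4 had 19.5 CPM in the E13.5 embryo (18.6 to 20.4), 23.2 CPM in the E16.5 embryo (22.3 to 24.2) and 123 and 111 CPM at P0. For both KLF factors the E16.5 level was above the E13.5 level, with intervals that did not overlap. Elf5 was nearly absent at E13.5, with 56 UMIs in the whole section (0.568 CPM, 0.429 to 0.737), with 3.22 CPM in the E16.5 embryo (2.89 to 3.58) and with 47.3 and 49.1 CPM at P0. Grhl1 had 1.60 CPM in the E13.5 embryo (1.36 to 1.87), 4.05 CPM in the E16.5 embryo (3.68 to 4.46) and 52.1 and 64.0 CPM at P0. Grhl3 had 2.20 CPM in the E13.5 embryo (1.92 to 2.51), 2.66 CPM in the E16.5 embryo (2.35 to 2.98) and 101 CPM in each P0 section. For Grhl3 the embryo intervals overlapped. Between the 2 P0 sections the mean ± SD (n = 2) was 101 ± 0.357 CPM for Grhl3, the member with the smallest SD relative to its level, and 58.1 ± 8.41 CPM for Grhl1, the member with the largest. Over the 8 separate strips of P0 tissue, the lowest and highest levels were 253 and 486 CPM for Klf5, 34.7 and 79.9 CPM for Elf5, and 107 and 153 CPM for Klf4.

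**Figure D1:**
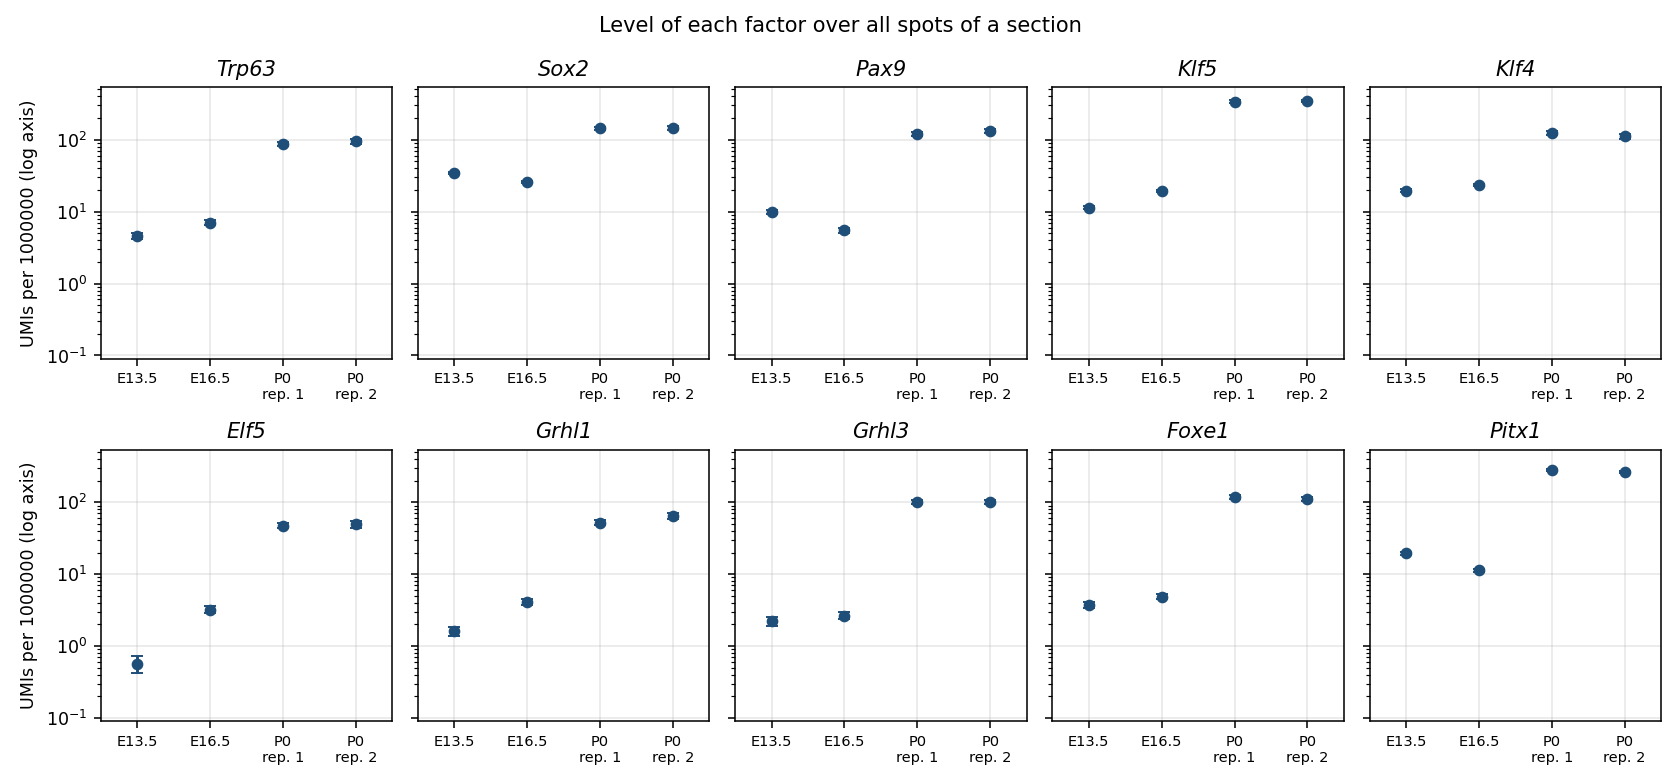
Level of each factor over all spots of a section, in UMIs per 1000000 on a log axis, with one panel for each gene and sections from E13.5 to P0 along the x axis; points are sections and bars are exact Poisson 95% intervals. In all 10 panels the P0 sections lie above the embryo sections, from 47.3 CPM for Elf5 to 346 CPM for Klf5, and Elf5 has the lowest embryo point at 0.568 CPM.

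The share of spots with at least 1 UMI was likewise higher at P0 than in either embryo for all 10 factors. How many of all genes did the same was not counted. Trp63 UMIs were present in 9.16% of spots at E13.5 (8.19 to 10.2), 15.1% at E16.5 (13.9 to 16.3), and 71.9% and 70.8% at P0. Elf5 UMIs were present in 1.61% of spots at E13.5 (52 of 3220, 1.21 to 2.11), 6.52% at E16.5 (234 of 3588, 5.74 to 7.38), and 49.6% and 44.3% at P0. Elf5 and Grhl1 were the members in the fewest P0 spots, and Klf4, Pitx1 and Klf5 were in the most, with 82.2% (Pitx1, replicate 2) as the lowest of their shares. With every spot thinned to 10000 UMIs the shares were lower: Elf5 had 0.622% at E13.5, 3.60% at E16.5, and 27.1% and 29.6% at P0, and Pitx1 had 10.0%, 8.22%, 81.8% and 78.5%.

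Co-occurrence of the factors separated the embryo sections from the esophagus. The median spot held UMIs of 1 of the 10 factors in either embryo and of 8 in each P0 section (6 after thinning). All 10 factors were detected together in 0 of 3220 spots in the E13.5 embryo, in 6 of 3588 at E16.5 (0.167%), in 118 of 363 in P0 replicate 1 (32.5%) and in 98 of 264 in P0 replicate 2 (37.1%). Among the epithelium-rich spots, which were the highest 2% of embryo spots or 25% of P0 spots by 10 epithelial marker genes, the median was 5 factors at E13.5, 7 at E16.5 and 10 in each P0 section. After thinning, these medians were 3, 5, 8 and 8. Epithelium-rich P0 spots with all 10 factors numbered 74 of 91 and 56 of 66. The overlap of pairs was uneven in the embryo. At E16.5, 38.1% of spots with Pax9 also held Trp63, which was in 15.1% of all spots, and 28.4% of spots with Trp63 held Pax9, which was in 11.3% of all spots. Foxe1 and Pitx1, in 8.25% and 14.2% of all spots at E16.5, overlapped in 47.6% of Foxe1 spots and 27.8% of Pitx1 spots. Of Sox2 spots at E16.5, 13.8% held Trp63 and 6.02% held Elf5, close to the 15.1% and 6.52% of all spots that held them. Likewise 26.6% of Trp63 spots held Sox2, which was in 29.2% of all spots. At P0, 91.2% and 92.5% of Trp63 spots held Sox2, against 79.6% and 72.7% of all spots. Of Sox2 spots, 82.4% and 90.1% held Trp63, against 71.9% and 70.8% of all spots.

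**Figure D2:**
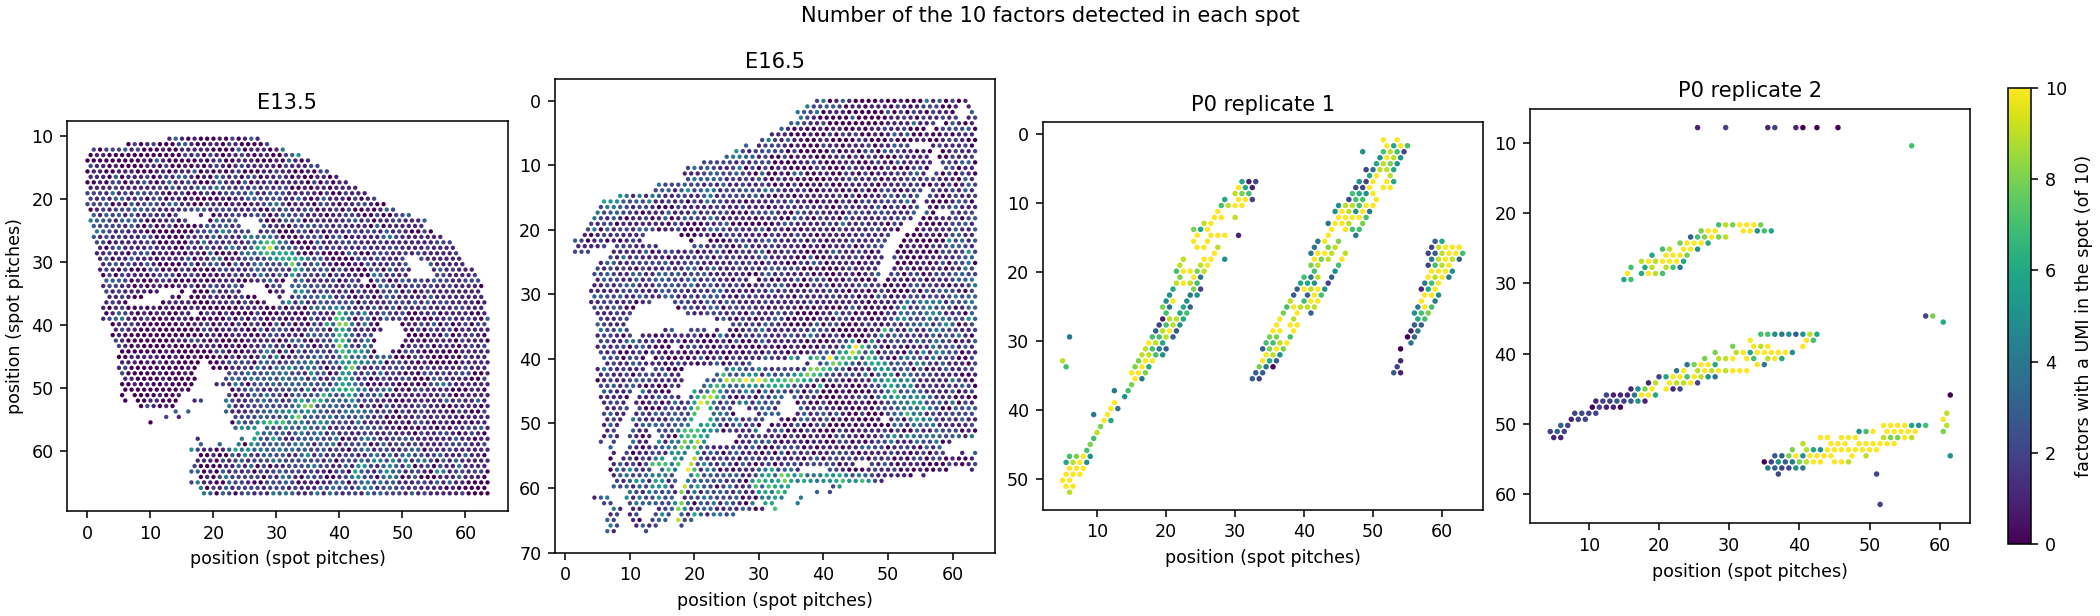
Number of the 10 factors with a UMI in each spot (colour, 0 to 10), with spots at their grid position in spot pitches, for the E13.5, E16.5 and 2 P0 sections. High counts form thin lines in the embryo sections, where the median spot holds 1 factor, and fill much of the P0 strips, where the median is 8.

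Correlations over spots set Klf4 apart from the other members at P0. Among the 36 pairs without Klf4, Pearson's r of log-scaled values over spots ran from 0.21 to 0.66 in P0 replicate 1 (363 spots) and from 0.39 to 0.70 in P0 replicate 2 (264 spots). The 9 pairs with Klf4 ran from 0.02 to 0.15 and from 0.07 to 0.24. In each section the lowest pair without Klf4 was Trp63 with Elf5, and the highest was Sox2 with Klf5 in replicate 1 and Pax9 with Klf5 in replicate 2. Sox2 and Klf4 had r of −0.11 at E13.5 and −0.07 at E16.5, the lowest pair in each embryo section among members with a UMI in at least 5% of spots. These spots share their section, their depth and their content of epithelium, so the values are a description.

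Within the P0 esophagus each of the 10 factors was higher in the epithelium than in the muscle. Epithelial spots are the epithelium-rich spots named above, and muscle spots were the highest 25% by smooth and striated muscle markers, and UMIs were summed per section and region before the test. The spots were chosen by markers in the same counts, none of which is one of the 10 factors, so a direction towards the epithelium is largely given by the choice, and the sizes are the description of interest. A lower level in a sum of spots can mean fewer cells of a type or less RNA per cell, which cannot be told apart. Of 12603 genes tested with edgeR's quasi-likelihood test, 28.4% were higher in epithelial spots and 28.3% lower at an adjusted p of 0.05 (Benjamini-Hochberg), against 10 of 10 factors higher. With library totals alone as the scale 2433 genes were higher and 4984 lower. All 10 factors stayed higher on that scale, which shifts the median of all genes to −0.29. On the main scale the median log2 fold change was 2.79 for the factors and 0.00 for all genes.

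Elf5, Grhl1 and Grhl3 had the largest differences. Elf5 had 82.8 and 84.4 CPM in epithelial spots of P0 replicates 1 and 2, against 7.07 and 3.83 CPM in muscle spots, a log2 fold change of 4.17 ± 0.22 (SE, edgeR adjusted p = 2.76e-14). Grhl1 had 90.1 and 101 CPM in epithelial spots, against 8.08 and 10.9 CPM in muscle spots (log2 fold change 3.63 ± 0.19). Grhl3 had 160 and 165 CPM in epithelial spots, against 13.6 and 19.8 CPM in muscle spots (3.59 ± 0.17). None of these groups overlapped, though the share of all genes tested without overlap was not counted. Klf5 had 512 and 479 CPM in epithelial spots, against 82.3 and 83.0 CPM in muscle spots (2.87 ± 0.12). Pax9, Foxe1 and Sox2 formed a middle group with log2 fold changes of 2.80 ± 0.15, 2.79 ± 0.14 and 2.71 ± 0.13. Sox2, for example, had 196 and 190 CPM in epithelial spots, against 33.8 and 38.3 CPM in muscle spots. The basal factor Trp63 (2.05 ± 0.15) and Pitx1 (1.94 ± 0.12) differed less. Pitx1 had 330 and 322 CPM in epithelial spots and still 111 and 95.8 CPM in muscle spots. Klf4 had the smallest difference, with 135 and 120 CPM in epithelial spots, against 102 and 71.5 CPM in muscle spots (0.84 ± 0.12, edgeR adjusted p = 3.05e-06).

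**Figure D3:**
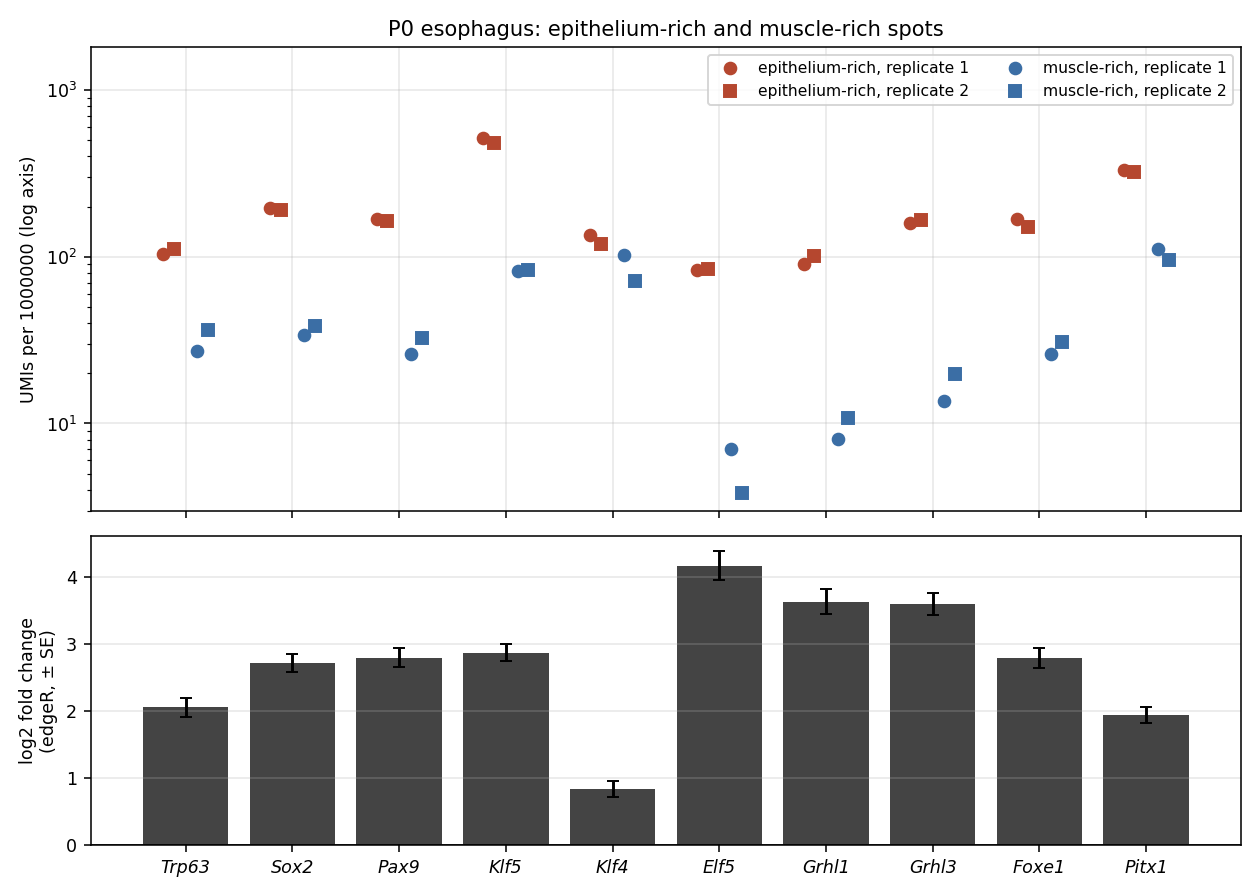
Upper panel, level of each factor (UMIs per 1000000, log axis) in epithelial and muscle spots at P0, with circles for replicate 1 and squares for replicate 2; lower panel, log2 fold change of epithelial over muscle spots with its SE from edgeR. All 10 differences are above 0, from 0.84 for Klf4 to 4.17 for Elf5.

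The muscle spots were not free of epithelium. The 10 epithelial markers summed to 17274 and 17733 CPM in epithelial spots, against 2509 and 2935 CPM in muscle spots. Connective tissue was present as well, with its 5 markers summing to 10870.5 and 9549 CPM in muscle spots, against 2265 and 2140 CPM in epithelial spots. The part of either tissue in the muscle levels was not tested. A Klf4 UMI was present in 95.6% and 100% of epithelial spots, against 81.3% and 72.7% of muscle spots, while an Elf5 UMI was present in 93.4% and 92.4%, against 14.3% and 9.09%. The depth differed too: the median epithelial spot had 39325 and 38936.5 UMIs, and the median muscle spot 20274 and 22535.5 UMIs. After thinning to 10000 UMIs the Klf4 shares were 64.8% and 66.7% in epithelial spots, against 58.6% and 51.6% in muscle spots, and the Elf5 shares 51.6% and 57.6%, against 9.20% and 1.61%. With striated muscle markers alone choosing the muscle spots, all 10 factors remained higher with smaller log2 fold changes, from 0.58 for Klf4 to 2.52 for Elf5. The remaining spots, chosen for neither group, had 99.3 and 109 CPM of Trp63, close to the 104 and 110 CPM of the epithelial spots. Their Elf5 level was 35.9 and 38.5 CPM. These remaining spots held epithelium too, with the 10 epithelial markers summing to 10789 and 10833 CPM. Its part in their levels was not tested.

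Other epithelial transcription factors and known targets moved mostly the same way between these regions. Of 28 listed factors 25 were tested, 21 were higher and 1 lower (median log2 fold change 2.57), where 28.4% of all genes tested were higher and 28.3% lower. Ovol1, a repressor of progenitor genes in epidermis, had 4.48 ± 0.40, Tfap2c 4.37 ± 0.72, Hopx, a homeodomain-only protein, 3.88 ± 0.12, and Zfp750, a factor of terminal differentiation, 3.67 ± 0.16. Ovol1 (3.03 and 0 CPM) and Tfap2c (1.01 and 0 CPM) were near the floor in muscle spots, so their sizes are uncertain. Maf, the 1 factor lower in the epithelium and named for that after its value was seen, fell by 0.76 ± 0.20 on the log2 scale. Of 18 listed targets of p63, grainyhead or KLF factors 17 were tested and 16 were higher (median 2.26), against the same 28.4% of all genes, led by the claudin Cldn4 (3.47 ± 0.14), the transglutaminase Tgm1 (3.35 ± 0.16), the envelope precursor Ivl (3.06 ± 0.71) and the desmosomal plakophilin Pkp1 (2.83 ± 0.13). Ivl was near the floor in muscle spots too, at 1.01 and 0.639 CPM. Fras1 had −0.36 ± 0.24 and did not pass (edgeR adjusted p = 0.204).

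Along a score of suprabasal against basal markers in the P0 epithelium, 3 of the 10 factors rose towards the suprabasal side, Grhl1, Elf5 and Grhl3. These calls were lost under some of the other settings below. Suprabasal-leaning and basal-leaning spots were the epithelium-rich spots at the upper and lower end of the difference between 11 suprabasal and 8 basal markers (30 spots of each kind in replicate 1, 22 in replicate 2). They are ranges of a score, not cell layers. Of 9303 genes tested with edgeR, 9.84% were higher in suprabasal-leaning spots and 3.54% lower, against 3 and 0 of the 10 factors. With library totals alone as the scale, 485 genes were higher and 661 lower. The median log2 fold change of the factors was 0.13, and that of all genes 0.01. Grhl1 had 114 and 127 CPM in suprabasal-leaning spots, against 61.5 and 69.6 CPM in basal-leaning spots, a log2 fold change of 1.10 ± 0.21 (SE, edgeR adjusted p = 1.19e-05). Elf5 had 107 CPM in the suprabasal-leaning spots of each section, against 71.7 and 57.6 CPM in basal-leaning spots (0.93 ± 0.21, edgeR adjusted p = 0.000352). Grhl3 had 182 and 180 CPM in suprabasal-leaning spots, against 139 and 137 CPM in basal-leaning spots (0.61 ± 0.20, edgeR adjusted p = 0.0268). In none of these did the groups overlap. The share of all genes tested without overlap was not counted, and these 3 factors were picked by their calls. Their promoters are those printed above.

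The other 7 factors did not pass. Trp63 had 82.8 and 75.0 CPM in suprabasal-leaning spots, against 121 and 152 CPM in basal-leaning spots, with a log2 fold change of −0.56 ± 0.21 (edgeR adjusted p = 0.0531). The Trp63 values did not overlap between the groups, which can arise by chance with 2 values a group, and its adjusted p lay just above 0.05. Klf4 had 159 and 123 CPM in suprabasal-leaning spots, against 128 and 106 CPM in basal-leaning spots (0.49 ± 0.20, edgeR adjusted p = 0.0969). Its ranges overlapped across sections but its ratio was positive within each, at 0.44 and 0.54. Klf5 (0.20 ± 0.23), Sox2 (0.06 ± 0.20), Foxe1 (0.04 ± 0.20), Pax9 (0.00 ± 0.20) and Pitx1 (−0.15 ± 0.22) had edgeR adjusted p from 0.653 to 0.996. Pitx1 had 307 and 277 CPM in suprabasal-leaning spots, against 357 and 398 CPM in basal-leaning spots, and Sox2 195 and 180 CPM, against 205 and 213 CPM. These CPM are lower on the suprabasal side while the fitted value of Sox2 is slightly above 0, because the fit scales each sum by its TMM factor and the CPM do not. Pax9 and Foxe1 pointed opposite ways in the 2 sections, with Pax9 at 0.20 in replicate 1 and −0.21 in replicate 2.

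These layer calls depended on the settings more than the regional ones. On the scale of library totals alone, which was tried once the data were known and shifts the median of all genes to −0.21, Trp63 fell (−0.77, edgeR adjusted p = 0.0081) and Grhl3 no longer passed (0.39, edgeR adjusted p = 0.145). Of the 10 factors, 1 passed when the highest 15% of spots were taken as epithelium-rich (Grhl1) and 0 passed with DESeq2's Wald test, which called 189 genes at an adjusted p of 0.05 and 632 at an unadjusted p under 0.05. Grhl3 lost its call under more settings than Elf5 or Grhl1: its edgeR adjusted p was also 0.0925 with the epithelium-rich spots split at the median and 0.0673 with no filter on low counts. With the highest 15% of spots Elf5 had 0.60 (edgeR adjusted p = 0.114) and Grhl3 0.50 (edgeR adjusted p = 0.174), and with DESeq2 the adjusted p was 0.0796 for Grhl1, 0.223 for Elf5 and 0.481 for Grhl3. Without replicate 2 or without replicate 1 the log2 ratio was 0.70 or 1.20 for Elf5 and −0.42 or −0.70 for Trp63. Markers of supporting tissue moved with this contrast: the 5 connective tissue markers summed to 1511 and 1241 CPM in suprabasal-leaning spots, against 2655 and 2478 CPM in basal-leaning spots, and their part in the result was not tested. The basal markers themselves differed little in CPM, at 11546 and 12138 CPM in suprabasal-leaning spots, against 11910 and 12915 CPM in basal-leaning spots. The suprabasal markers summed to 55160 and 53939 CPM, against 34654 and 29894 CPM. The TMM factors of the fit were 0.95 and 0.90 for suprabasal-leaning sums and 1.04 and 1.13 for basal-leaning sums. On that scale the summed basal markers were higher in suprabasal-leaning spots, so the sums of the groups differ mainly in suprabasal markers. In replicate 2 the suprabasal-leaning spots were also deeper, with a median of 50544.5 UMIs, against 35155 in basal-leaning spots.

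**Figure D4:**
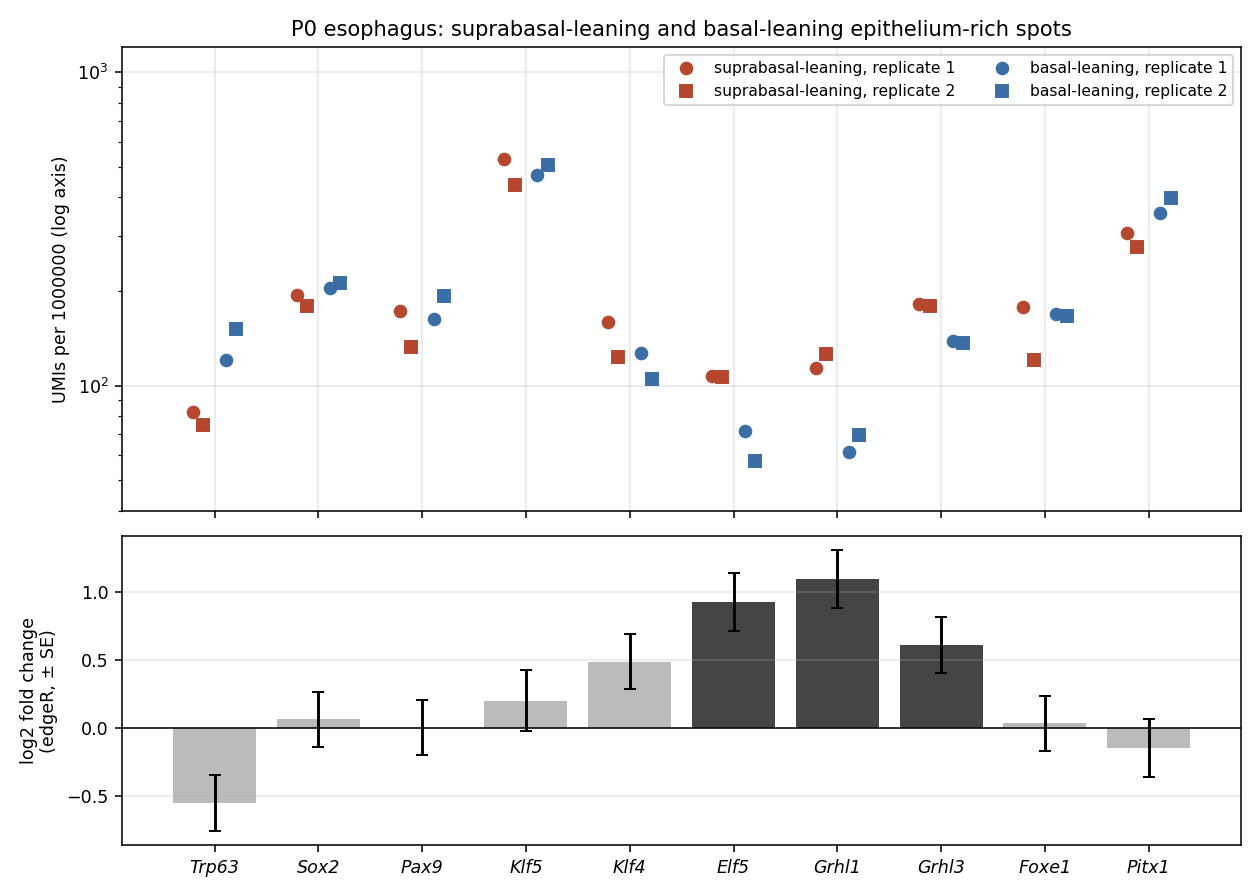
Upper panel, level of each factor (UMIs per 1000000, log axis) in suprabasal-leaning and basal-leaning epithelium-rich P0 spots, with circles for replicate 1 and squares for replicate 2; lower panel, log2 fold change of suprabasal-leaning over basal-leaning spots with its SE from edgeR. Dark bars passed an adjusted p of 0.05 (Elf5, Grhl1 and Grhl3), light bars did not, and Trp63 has the lowest value at −0.56.

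In the same lists, 4 other transcription factors of 23 tested rose towards the suprabasal side and 1 fell (median log2 fold change 0.13), where 9.84% of all genes tested rose and 3.54% fell. Prdm1, a zinc finger repressor, had 1.502 ± 0.30, the ETS factor Elf3 1.39 ± 0.23, Hopx 1.35 ± 0.31 and Zfp750 0.58 ± 0.20. Sox15 fell by 1.25 ± 0.39 on the log2 scale. Of 14 target genes tested, 3 rose and 3 fell (median −0.24), to be read against the same shares of all genes. Tgm1 (0.91 ± 0.21), Cldn4 (0.77 ± 0.23) and the cell cycle inhibitor Cdkn1a (0.75 ± 0.21) rose. The Notch ligand Jag2 (−1.18 ± 0.23), the integrin Itga3 (−0.98 ± 0.24) and the receptor Fgfr2 (−0.88 ± 0.21), which basal cells carry, fell. Zfp750, Cdkn1a and Cldn4 were named after their values were seen.

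In the embryo sections the factors were also concentrated in epithelium-rich spots, and several were high in spots rich in other tissues as well. Epithelium-rich spots numbered 64 at E13.5 and 72 at E16.5. At E13.5 they held 1.52% of all UMIs and 33.9% of Trp63 UMIs, 28.1% of Foxe1 UMIs and 24.9% of Grhl3 UMIs, but 3.62% of Sox2 UMIs and 2.50% of Klf4 UMIs. At E16.5 they held 1.59% of all UMIs and 31.7% of Grhl3, 30.3% of Foxe1, 29.1% of Pitx1, 8.09% of Sox2 and 4.64% of Klf4 UMIs. The level was at least 2-fold higher than in all other spots for 9 of 10 factors at E13.5, where 9.02% of 17209 genes were, and for 10 of 10 at E16.5, where 17.4% of 17841 genes were. The exception was Klf4 at E13.5, with 32.0 CPM (23.6 to 42.4) in epithelium-rich spots, against 19.3 CPM (18.4 to 20.2) elsewhere. Trp63 had 101 CPM in epithelium-rich spots, against 3.05 CPM elsewhere at E13.5, and 70.1 CPM, against 6.01 CPM elsewhere at E16.5. As in P0, the epithelial markers chose the spots, and each stage is 1 section, so no test was made.

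Spots rich in markers of single tissues, the highest 2% by each list, placed the other sites. Sox2 was highest in neural progenitor-rich spots, with 504 CPM (474 to 535) in these 64 spots at E13.5, against 24.6 CPM in all other spots, and 185 CPM (170 to 202), against 21.3 CPM, at E16.5. Those 64 spots held 30.5% of all Sox2 UMIs of the E13.5 section. At E16.5 Foxe1 had 73.4 CPM (59.9 to 89.1) in thyroid-rich spots, against 3.95 CPM elsewhere, and a Foxe1 UMI lay in 30.6% of those spots. The thyroid list rested on 3 of 5 markers with at least 20 UMIs. Trp63 had 60.1 CPM (44.9 to 78.9) in thymus-rich spots, against 6.59 CPM elsewhere, and Pax9, which the thymus primordium needs, had 28.9 CPM (18.7 to 42.7), against 5.28 CPM. The thymus, thyroid and neural progenitor spots shared at most 1 spot with each other.

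Elf5 at E16.5 was highest in salivary gland and lung. Salivary gland-rich spots had 53.8 CPM of Elf5 (44.6 to 64.3), against 2.13 CPM elsewhere, and held 35.2% of all Elf5 UMIs of the section. Distal lung-rich spots had 47.9 CPM (36.6 to 61.7), against 2.69 CPM elsewhere. Endothelium-rich spots had 19.7 CPM of Elf5, and 31 of those 72 spots were also distal lung-rich. Salivary gland-rich spots were also high in Pitx1 (125 CPM, 110 to 140), Pax9 (37.2 CPM, 29.6 to 46.1) and Grhl1 (34.9 CPM, 27.6 to 43.6), whereas Foxe1 had 1 UMI there (0.448 CPM, 0.0113 to 2.50) and Sox2 1.79 CPM. Klf5 reached 87.4 CPM (75.8 to 100) in ciliated and secretory airway-rich spots, against 17.8 CPM elsewhere, and 55.9 CPM in distal lung-rich spots. Of the 72 airway-rich spots, 14 were also epithelium-rich, where Klf5 had 243 CPM.

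Klf4 was spread over mesenchyme and skin. In E16.5 connective tissue-rich spots it had 85.0 CPM (72.3 to 99.3), against 22.1 CPM elsewhere, and 17 of those 72 spots were also epidermis-rich. In epidermis-rich spots at E16.5 Klf4 had 101 CPM (85.4 to 119), Grhl1 38.4 CPM (28.9 to 49.9) and Trp63 36.3 CPM (27.1 to 47.6). Cartilage-rich spots held 46.3 CPM of Klf4 in the E13.5 embryo (31.2 to 66.1) and 43.2 CPM in the E16.5 embryo (27.7 to 64.3). Neuron-rich spots held the least Klf4 of the tissues shown at E13.5, with 2 UMIs in 64 spots (0.863 CPM, 0.105 to 3.12). At E13.5 the lists for mucosal epithelium, salivary gland, thyroid, distal lung and airway had fewer than 3 markers with at least 20 UMIs, so spots are not named from them there. The E13.5 epidermis list rested on 4 of 7 markers, summing to 232 CPM in the chosen spots, against 17835 CPM at E16.5.

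**Figure D5:**
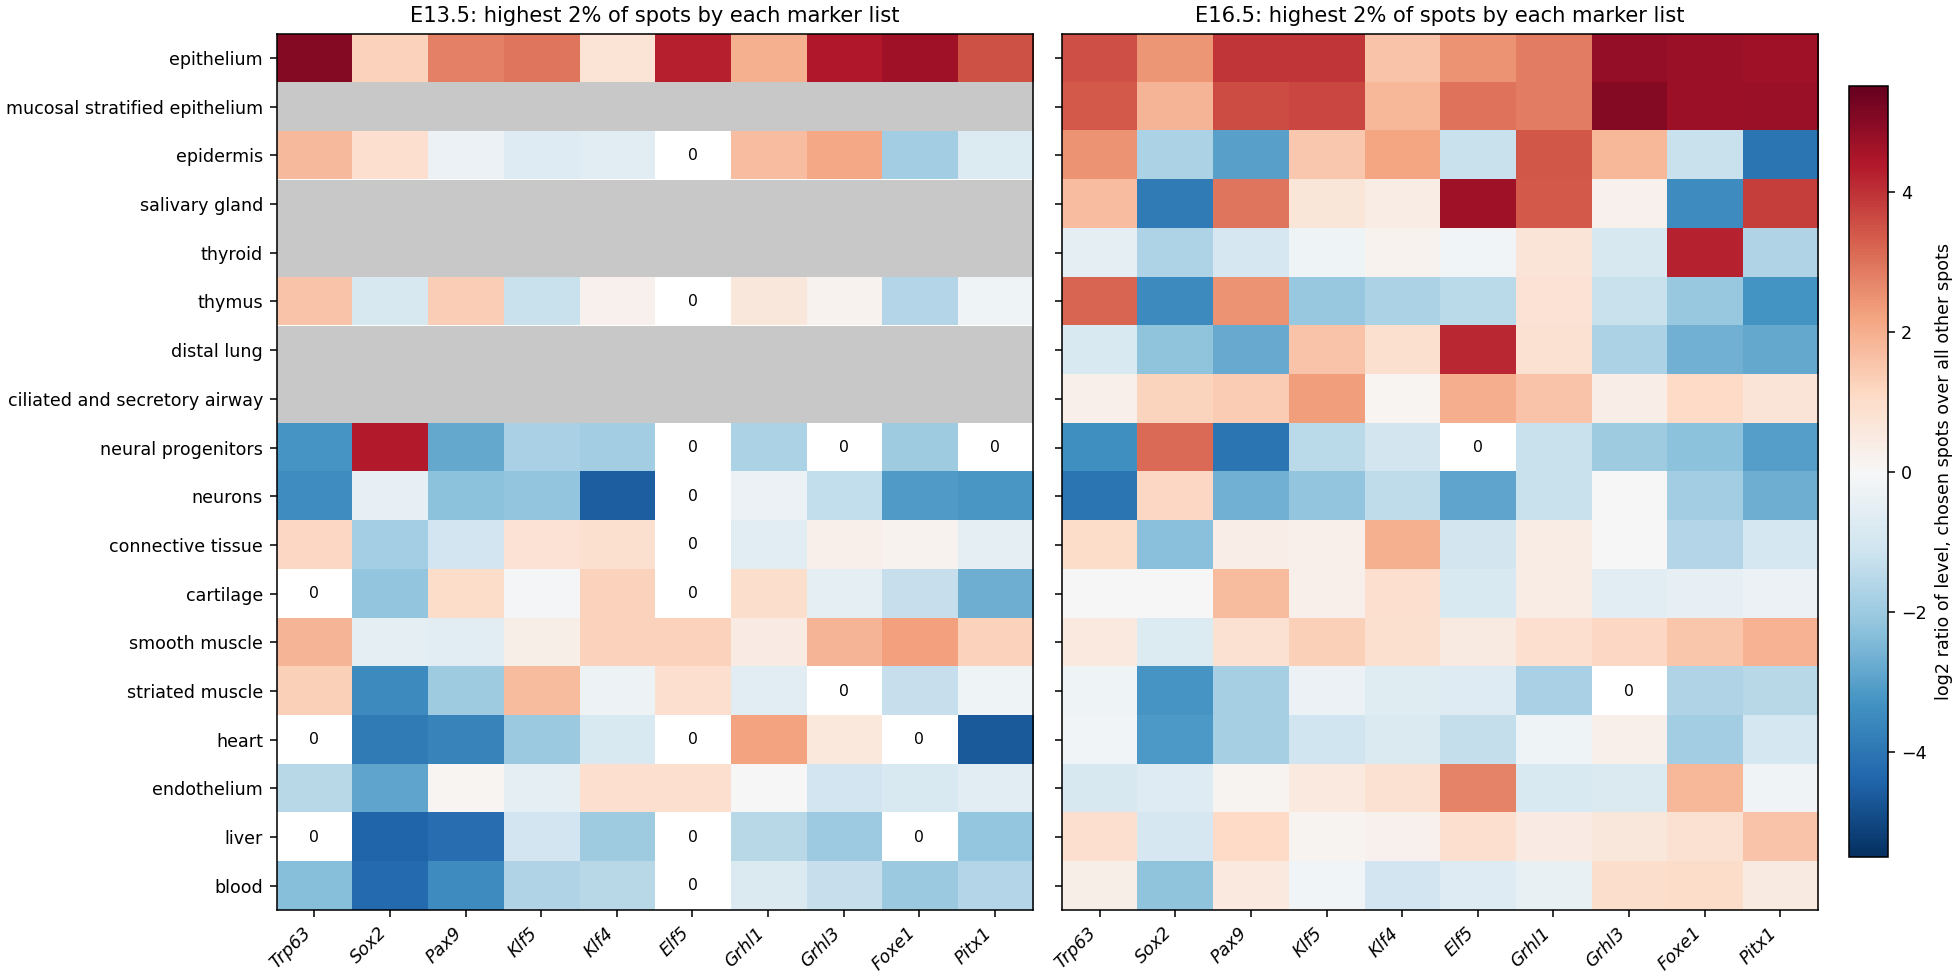
Log2 ratio of the level of each factor (columns) in the highest 2% of spots by each tissue marker list (rows) over all other spots, for E13.5 (left) and E16.5 (right); grey rows had fewer than 3 markers with at least 20 UMIs, and 0 marks factors with no UMI in the chosen spots. The epithelium row is positive for all 10 factors at both stages, and some sites stand out, such as Sox2 in neural progenitors (4.35 at E13.5), Elf5 in salivary gland (4.66 at E16.5) and Foxe1 in thyroid (4.21 at E16.5).

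Mucosal and epidermal spots differed most in Pitx1, Pax9 and Foxe1, in a comparison added after the data were seen. At E16.5 the highest 2% of spots by mucosal markers (Krt13, Krt4, Krt6a, Sprr3 and Krt78) and by epidermal markers were 72 spots each, with 0 shared. The spot sets also differed in other content: 43 mucosal spots and 4 epidermal spots were epithelium-rich, and 2 mucosal spots and 17 epidermal spots were connective tissue-rich. The part of this in the ratios was not tested. Pitx1 had 223 CPM (200 to 249) in mucosal spots, against 0.698 CPM (0.0177 to 3.89, 1 UMI) in epidermal spots, a log2 ratio of 8.32 (5.83 to 13.6). Pax9 had 56.7 CPM (45.1 to 70.3) in mucosal spots, against 0.698 CPM (0.0177 to 3.89, 1 UMI) in epidermal spots (log2 ratio 6.34, 3.83 to 11.7). Foxe1 had 94.2 CPM (79.2 to 111) in mucosal spots, against 2.09 CPM (0.432 to 6.12, 3 UMIs) in epidermal spots (5.49, 3.92 to 7.79). Sox2 had 89.5 CPM (74.8 to 106) in mucosal spots, against 7.67 CPM (3.83 to 13.7) in epidermal spots (3.54, 2.66 to 4.58). In the epidermal spots Pitx1, Pax9 and Foxe1 thus had 1 to 3 UMIs each, while Sox2 had 11.

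Elf5 had 23.2 CPM in mucosal spots, against 1.40 CPM in epidermal spots (2 UMIs, log2 ratio 4.06, 2.09 to 7.16), Grhl3 60.8 against 9.07 CPM (2.74, 1.90 to 3.71) and Klf5 210 against 53.0 CPM (1.99, 1.62 to 2.37). Trp63 had 64.9 CPM in mucosal spots, against 36.3 CPM in epidermal spots (0.84, 0.34 to 1.36), and with the highest 1% of spots its ratio was 0.24 with an interval that includes 0 (−0.37 to 0.86). Grhl1 had 26.6 CPM in mucosal spots, against 38.4 CPM in epidermal spots (−0.53, −1.16 to 0.09), and Klf4 80.6 against 101 CPM (−0.33, −0.69 to 0.03). For Grhl1 the highest 1% of spots gave −0.92 with an interval below 0 (−1.63 to −0.22). Of 11403 genes with at least 20 UMIs, 13% were at least 2-fold higher in mucosal spots and 6.16% at least 2-fold lower, against 7 and 0 of the 10 factors. There is 1 section, so the intervals cover counting error and not animals.

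Across stages the epithelium-rich spots were compared by log2 ratios of CPM, with a pseudocount of 0.5 and P0 as the mean over its sections. At E16.5 over E13.5, Grhl1 had the largest ratio, with 26.2 CPM at E16.5 against 6.0 CPM at E13.5 (2.04, 1.07 to 3.34), followed by Klf5 with 243 against 78.7 CPM (1.62, 1.33 to 1.94) and Klf4 with 67.8 against 32.0 CPM (1.07, 0.58 to 1.60). Sox2 (0.66), Grhl3 (0.55) and Foxe1 (0.43) had intervals above 0. Elf5 had 16.6 against 8.67 CPM (0.90, −0.05 to 2.01), and Pax9 and Pitx1 both had ratios of 0.12 with intervals that include 0. Trp63 was the member with an interval below 0, with 70.1 CPM at E16.5 against 101 CPM at E13.5 (−0.53, −0.89 to −0.17), and with the highest 1% of spots that interval included 0 (−0.88 to 0.08). The interval of Foxe1 included 0 with the highest 1% of spots as well (−0.01 to 0.93), while that of Elf5 lay above 0 (0.15 to 2.91). Of 11875 genes, 18.0% were at least 2-fold higher at E16.5 and 9.61% at least 2-fold lower, against 3 and 0 of the 10 factors.

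At P0 over E16.5 Elf5, Grhl1 and Grhl3 had the largest ratios. Elf5 had 82.8 and 84.4 CPM at P0 against 16.6 CPM at E16.5 (log2 ratio 2.29 ± 0.02, SD over the 2 P0 sections), Grhl1 90.1 and 101 against 26.2 CPM (1.85 ± 0.12) and Grhl3 160 and 165 against 52.9 CPM (1.61 ± 0.03). This SD leaves out the counting error of the E16.5 section, where Elf5 had 28 UMIs in epithelium-rich spots (11.1 to 24.1 CPM). Pax9 (1.27) and Klf5 (1.02) also passed 2-fold. Klf4 (0.91), Foxe1 (0.78), Pitx1 (0.66), Trp63 (0.61) and Sox2 (0.56) did not. With the highest 1% of embryo spots all 10 ratios were smaller, with Elf5 at 1.74, Grhl1 at 1.62 and Grhl3 at 1.06. Pax9 (0.96) and Klf5 (0.81) were then also under 2-fold. Of 12815 genes 6.92% were at least 2-fold higher at P0 and 26.2% at least 2-fold lower, against 5 and 0 of the 10 factors, and the median of all genes was −0.41. The share of epithelium in a spot differs between embryo and esophagus, so the ratio was also taken per 100 UMIs of the epithelial genes Epcam and Cdh1. On that scale Elf5 (1.31), Grhl1 (0.85), Grhl3 (0.60) and Pax9 (0.27) stayed above 0, and Klf5 had 0.01 ± 0.15 (SD over the 2 P0 sections). As means of the 2 P0 sections, 5 factors turned negative. These were Trp63 (−0.40 ± 0.02), Sox2 (−0.45 ± 0.12), Pitx1 (−0.36 ± 0.11), Foxe1 (−0.23 ± 0.20) and Klf4 (−0.10 ± 0.21). For Klf4 the SD was larger than the distance from 0.

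The genes whose pattern over spots was most like that of each factor changed with the section. At P0, over 627 spots of 2 sections, Trp63 was closest to the basal genes Col17a1 (r of 0.52 and 0.64 in replicates 1 and 2) and Krt5 (0.56 and 0.59). Next was the general epithelial marker Perp (0.51 and 0.61). Pitx1 was closest to Krt15 (0.70 and 0.76), Krt5 and Col17a1. Grhl3 was closest to 2200002D01Rik (0.74 and 0.72), Hopx (0.73 and 0.72) and Calml3, a calmodulin-like protein (0.73 and 0.71). Elf5 shared 2200002D01Rik (0.65 and 0.70) and Calml3 with Grhl3, and added Emp1. Grhl1 was closest to Hopx (0.68 and 0.71), Calml3 and Pdzk1ip1. Klf5 had the highest values of any member, with Cyp2f2 (0.84 and 0.77), Spint2 (0.81 and 0.79) and the mucosal keratin Krt13 (0.83 and 0.76). Sox2 was closest to Krt15 (0.68 and 0.69), Cyp2f2 and Perp, Pax9 to Perp (0.66 and 0.76), Esrp1 and Cyp2f2, and Foxe1 to Perp (0.65 and 0.73), Krt15 and Cdh1. For Klf4 no gene had a mean r of 0.3.

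In the embryo the closest genes differed between members and stages. Sox2 was closest at E13.5 to AW047730 (r = 0.75, 3220 spots), Ttyh1 (0.74) and Aldoc (0.71), and at E16.5 to Efnb3 (0.52, 3588 spots), Ttyh1 and Mlc1. Klf4 was closest to the collagens Col5a1 (0.40) and Col6a3 (0.40) at E13.5, with Ahnak, and to S100a6 (0.36), Col1a2 and Col3a1 at E16.5. Trp63 was closest to the basal keratins Krt5 (0.60) and Krt14 (0.56) and to Sfn (0.50) at E13.5, and to Krt17 (0.43), Krt5 and Ly6d at E16.5. Pax9 was closest at E13.5 to Sim2 (0.38), Foxf2 and Barx1, and at E16.5 to Pitx1 (0.37), Anxa1 and Ehf. Pitx1 was closest at E13.5 to Lhx8 (0.44), Prrx1 and Anxa1, and at E16.5 to Fxyd3 (0.57), Upk3bl and Krt4. Elf5 at E16.5 was closest to the aquaporin Aqp5 (0.48), Fxyd3 (0.41) and Dcpp3 (0.40). Foxe1 was closest to Krt15 (0.48), Epcam and Wfdc2 at E13.5, and to the mucosal keratins Krt4 (0.50), Krt6a (0.48) and Krt13 (0.48) at E16.5. Klf5 was closest to Krt15 at both stages (0.32 and 0.46), Grhl3 to Krt5 (0.36) at E13.5 and Psca (0.47) at E16.5, and Grhl1 to Krt23 (0.41) at E16.5.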

How the data were processed

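Spatial gene expression (10x Visium) was measured in 4 sections, each cut at 8 µm. The deposited counts are UMIs per gene and spot over 32285 genes, made by the authors with Space Ranger 2.0.0 against mm10, per the submitters' processing notes. No normalization had been applied to them, which the whole numbers show.

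The members and lists were chosen with earlier results of these data known. All 10 genes are named, with the 3 genes of highest Pearson r over spots where r reached 0.3, and the 4 called genes of each list with the largest change. Spots with at least 500 UMIs were kept. A spot's score is the mean of log(1 + UMIs per 10000) over a marker list, and the highest-scoring spots of a section were taken as rich in that tissue: 25% at P0 and 2% in the embryos. Raw UMIs were summed per section and region and tested across all genes with edgeR 4.0.16 (R 4.3.3; quasi-likelihood F test, TMM scaling, filterByExpr, section as a block, Benjamini-Hochberg adjusted p of 0.05). The block pairs regions of the same section, so the pairing comes from the tissue itself. Marker genes stayed out of the tests. DESeq2 1.42.0 was an alternative. In the layer comparison the fit has 1 residual degree of freedom. There edgeR estimated an infinite weight for the spread of all genes (its prior degrees of freedom), so the spread rests on that of all genes.

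On simulated counts for the regional comparison (12603 genes), 67% of genes changed by 1 log2 unit and 95% changed by 2 were recovered. For the layer comparison (9303 genes) these were 52% and 96%. The simulations left 12403 and 9103 genes unchanged, had no section effect and used the spread trended over all genes. Spots were not chosen by markers in them, so these rates need not hold for the data. Motifs and the mucosal comparison were added after the data were seen. Python 3.11.15, numpy 2.4.6, scipy 1.17.1 and matplotlib 3.10.9 were used.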

Additional observations from a re-analysis of the deposited data

Results flagged for a closer look

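Sox2 and Klf4 pointed in opposite directions in epidermis-rich spots of the E16.5 and E13.5 sections, which is what singled them out. Epidermis-rich names the marker list here, and the spots of the 2 sections need not be the same tissue. The difference between the stages was not tested, since each stage is 1 section. For Sox2 the log2 ratio of epidermis-rich over all other spots was −1.76 at E16.5 (7.67 CPM, against 25.9 CPM elsewhere) and 0.926 at E13.5 (64.8 CPM, against 34.1 CPM elsewhere). For Klf4 the log2 ratio was 2.19 at E16.5 (101 CPM, against 22.2 CPM elsewhere) and −0.644 at E13.5 (12.6 CPM, against 19.6 CPM elsewhere). The lower Klf4 level at E13.5 depended on the 2% limit. In the highest 1% of E13.5 spots Klf4 had 18.2 CPM (10.6 to 29.1), close to the 19.5 CPM of the whole section. Sox2 had 65.3 CPM (49.9 to 83.8) in those spots. The epidermal markers summed to 17835 CPM in the chosen spots, against 147 CPM elsewhere, at E16.5, and to 232 CPM, against 64.1 CPM, at E13.5, where 4 of 7 markers had at least 20 UMIs. Without 1 spot shared with the mucosal list, the chosen E13.5 spots had 14.2 CPM of Trp63 and 6.08 CPM of Klf5. Over the whole E13.5 section these levels were 4.54 and 11.4 CPM, and in its epithelium-rich spots 101 and 78.7 CPM. Of the 64 epidermis-rich spots at E13.5, 5 were also rich in neural progenitor markers, in which Sox2 was highest. The part of these spots in the difference was not tested.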

How the results depend on the processing

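In the regional P0 comparison all 10 factors stayed higher under every alternative with a test. The number of genes called was 7140, against 4718 with DESeq2 and 4323 with only the largest strip of each section (153 of 363 and 99 of 264 spots). The layer comparison moved more: 1244 genes were called, against 586 with the highest 15% of spots and 189 with DESeq2, whose adjusted p was NA for 4618 genes. Of the factors, 3 rose, against 1 with the highest 15% of spots and 0 with DESeq2, and 0 fell, against 1 with library totals alone. Factors near 0 there changed sign: Foxe1 had −0.0141 with the highest 15% of spots, Sox2 −0.0592 and Pax9 −0.0573 with the epithelium-rich spots split at the median, Pax9 −0.0256 with DESeq2, and with library totals alone Sox2 −0.156, Pax9 −0.213, Klf5 −0.0189 and Foxe1 −0.177. Leaving out a section gave Pax9 from −0.213 to 0.203 and Foxe1 from −0.143 to 0.194. No count of calls can be had with 1 section, since no residual degrees of freedom are left. Without the replicate block 6735 genes were called in the regional and 1149 in the layer comparison, and the calls of the factors did not change. Per 100 UMIs of Epcam and Cdh1, the mean P0 over E16.5 ratios of Trp63 (−0.403), Sox2 (−0.454), Klf4 (−0.105), Foxe1 (−0.234) and Pitx1 (−0.355) turned negative. For Klf4 the SD over the 2 P0 sections, 0.207, was larger than the distance of its ratio from 0. Thinning lowered the share of spots beyond its interval in 39 of 40 cases, a direction largely given by the step, which takes UMIs away. The cause of the other changes was not tested. Depth limits Elf5 at E13.5 (56 UMIs) and the 1 to 3 UMIs of Pitx1, Pax9, Foxe1 and Elf5 in epidermal spots.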
